A study of Mus musculus with 30 samples.

Results

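The 8 genes *Sox10*, *S100b*, *Foxd3*, *Sox2*, *Fabp7*, *Gpm6b*, *Cdh19* and *Kcna1* are identity genes of enteric glia, the glial cells of the gut wall, and were followed here in a mouse model of postoperative ileus (POI), a stop of gut motility after abdominal surgery. They were taken by name, and all 8 were found among the 26179 genes listed for the glial libraries and the 24601 genes listed for whole muscle tissue. Mice received intestinal manipulation (IM), in which the small bowel is gently rolled during surgery, and tissue was taken 3 h, 24 h or 72 h later (IM3h, IM24h, IM72h), with unoperated naïve mice as controls. The muscularis externa (*ME*), the outer muscle layer that holds the myenteric ganglia, was sampled as mRNA pulled down with HA-tagged ribosomes (*RiboTag*) and as total RNA of the lysate (*ME*). The count tables hold 3 naïve *RiboTag* libraries and 4 at each later time, and 3 naïve, 3 IM3h, 4 IM24h and 4 IM72h libraries of *ME* RNA. The labels list 30 samples and 29 libraries are in the tables, because 1 naïve *RiboTag* sample has no line in them and was not analysed here.

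All *RiboTag* mice carried B6 Tg(Sox10-icre/ERT2)388Wdr/J together with B6N.129 Rpl22tm1.1Psam/J, so that an inducible Cre under *Sox10* control switches on the tag of the ribosomal protein RPL22. Cre was induced with tamoxifen before surgery and the methods give adult male mice for this model. The labels give the same line for *ME* libraries at IM24h and IM72h, but B6.Cg-Tg73.12Mvs/J(Gfap-cre) in place of the *Sox10* transgene for naïve and IM3h *ME* libraries, whereas the methods name the *Sox10* line and no such *Gfap* line. If the labels hold, in the *ME* a difference between naïve mice and IM24h or IM72h cannot be told apart from a difference between lines, whereas IM3h against naïve and IM72h against IM24h stand within 1 line. The pulldown is limited to cells in which *Sox10* drove the Cre when tamoxifen was given, and the study counts its replicates as animals, although the labels do not tie a library to a mouse, so that p-values cover the spread between libraries.

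Enteric glia arise from the neural crest and ensheath the neurons of the gut. *Sox10*, *Foxd3* and *Sox2* are transcription factors of neural crest progenitors, and SOX10 remains on in mature glia, where it maintains glial genes. S100B is a calcium-binding protein and the classic marker of mature enteric glia, FABP7 binds fatty acids in progenitors and glia, GPM6B is a membrane proteolipid, CDH19 is a cadherin of the Schwann cell and glial lineage, and *Kcna1* encodes the voltage-gated potassium channel Kv1.1, which is also made by neurons.

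In the mm10 build, *Sox10* lies at chr15:79154908-79165240 on the minus strand, *Foxd3* is a gene of 1 exon at chr4:99656299-99658622 (plus) and *Sox2* a gene of 1 exon at chr3:34650405-34652461 (plus). *S100b* lies at chr10:76253853-76261159 (plus), *Fabp7* at chr10:57784881-57788450 (plus), *Gpm6b* at chrX:166238911-166388988 (plus), *Cdh19* at chr1:110888326-110977584 (minus) and *Kcna1* at chr6:126640397-126646384 (minus). Reads of the 3′ end libraries fall mostly near the end of the last exon, and 4 of the 8 members share bases with another annotated gene. *S100b* overlaps *Dip2a* on the other strand, *Sox2* lies within the long non-coding *Sox2ot* on its own strand, *Foxd3* overlaps *Gm23366*, and *Cdh19* overlaps *Gm38255* and *Gm36944*. Whether counting used the strand is not given in the sources used here, so reads of *S100b* and *Dip2a* could not be told apart with certainty. *Sox2ot*, *Gm23366*, *Gm38255* and *Gm36944* lie on the same strand as the member they overlap. Strand alone would not separate reads in the shared bases there.

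SOX proteins, SOX10 and SOX2 among them, bind short sites of the form ACAAAG or ACAATG. Of the 8 members, 5 had a promoter in the RefSeq table of build GRCm38.p6, *S100b*, *Foxd3*, *Sox2*, *Fabp7* and *Gpm6b*, each as 300 bases from 250 before the RefSeq start to 50 after it, a start that need not be the gene start given above. On either strand, ACAAAG (reverse complement CTTTGT) was found in 2 of the 5, in *Sox2* at 206 bases and in *Gpm6b* at 65 bases before the RefSeq start, and 18.7% of 32851 promoters of that length hold it. ACAATG (reverse complement CATTGT) was found in 0 of the 5 and in 12.6% of all promoters. Shown for *Sox2* and *Gpm6b*, the members with a match, are the 250 bases before the RefSeq start of *Sox2* and, for *Gpm6b*, the first 218 bases of the window, which stop just before the gene start given above, and capitals mark ACAAAG.
Sox2, plus strand, chr3:34649745-34649994: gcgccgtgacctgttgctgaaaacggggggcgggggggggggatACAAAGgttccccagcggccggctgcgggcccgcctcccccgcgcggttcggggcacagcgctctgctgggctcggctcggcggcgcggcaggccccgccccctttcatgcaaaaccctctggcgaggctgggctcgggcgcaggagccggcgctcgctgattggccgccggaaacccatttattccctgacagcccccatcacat
Gpm6b, plus strand, chrX:166238693-166238910: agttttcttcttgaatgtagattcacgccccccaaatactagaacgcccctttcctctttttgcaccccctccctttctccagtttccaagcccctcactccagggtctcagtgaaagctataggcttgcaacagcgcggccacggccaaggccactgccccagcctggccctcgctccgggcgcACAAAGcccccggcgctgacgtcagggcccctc

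The libraries held 3.01e+06 to 7.90e+06 counts in *RiboTag* and 6.60e+06 to 1.29e+07 counts in *ME*. One entry of the annotation, AY036118, lies inside an rRNA gene. It took 2.02% to 13.98% of *RiboTag* counts in naïve mice and at IM3h and 58.0% to 80.1% at IM72h. At IM24h it took 22.2% to 59.2%, highest in libraries 2 and 3 with 59.2% and 58.1%. Genes with at least 1 count numbered 15732 to 19331 in *RiboTag* libraries of naïve mice and IM3h, 11392 to 16689 at IM24h and 8644 to 11416 at IM72h. In the *ME*, AY036118 took 16.1% to 33.5% of the counts in naïve mice and at IM3h and 1.33% to 6.50% later, and 19174 to 22446 genes were detected. Levels below are CPM, counts scaled to a common library size with TMM factors within each fraction, and calls are adjusted p-values under 0.05 of the edgeR quasi-likelihood test over all genes. Libraries are numbered in the order of the tables, and the numbers pair nothing. *Gfap*, a glial filament gene and no member, was counted in all libraries but *RiboTag* IM72h libraries 1 and 2.

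**Figure D1:**
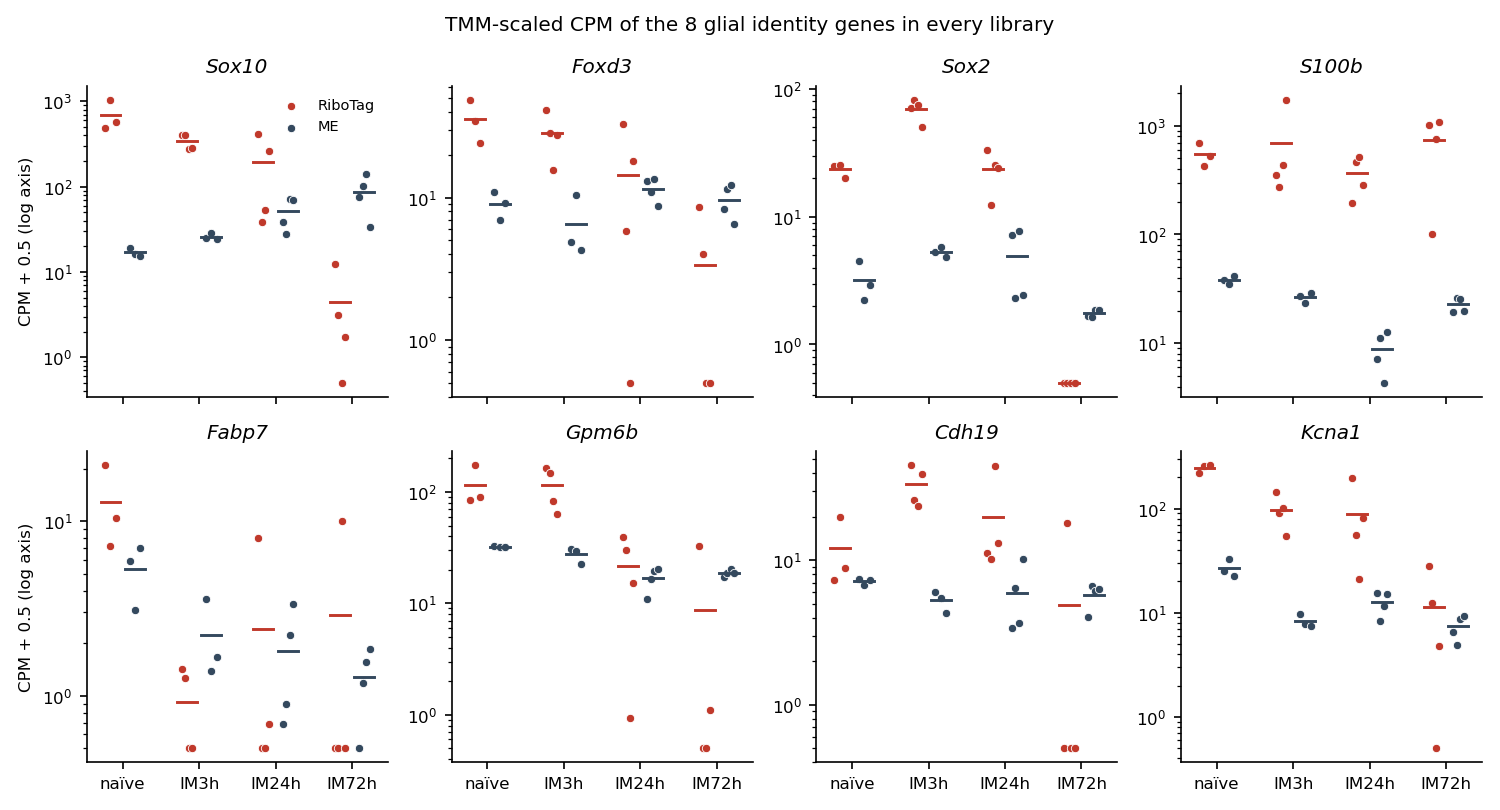
TMM-scaled CPM plus 0.5 of each member on a log axis, with 1 point per library, red for *RiboTag*, dark blue for *ME* and bars for group means. In naïve mice every *RiboTag* library lies above every *ME* library for all members but *Cdh19*, where 6.82 and 6.88 CPM overlap, and at IM72h this holds for *S100b* alone.

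In naïve mice the glial pulldown held more of 7 of the 8 identity genes than the muscle tissue, *Cdh19* being the one without a call. Of the transcription factors, *Sox10* stood at 483, 1033 and 571 CPM in *RiboTag* libraries and at 18.7, 15.9 and 14.7 CPM in *ME* libraries. This was the largest difference of a member in naïve mice, 5.76 ± 0.34 (log2 ± SE, adjusted p = 4.18e-05). *Sox2* stood at 24.6, 24.7 and 19.5 CPM against 3.98, 1.72 and 2.42 CPM (3.40 ± 0.37, adjusted p = 4.71e-04), and *Foxd3* at 23.5 to 47.8 CPM against 6.45 to 10.5 CPM (2.39 ± 0.33, adjusted p = 0.00145). Each of the 3 factors was thus higher in the pulldown, with no overlap of libraries.

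*S100b* stood at 700, 428 and 529 CPM in naïve *RiboTag* libraries and at 37.9, 34.8 and 41.0 CPM in *ME* libraries (4.23 ± 0.23, adjusted p = 4.18e-05). The channel gene *Kcna1* stood at 221, 254 and 258 CPM against 24.5, 32.4 and 22.2 CPM (3.58 ± 0.19, adjusted p = 4.18e-05). *Gpm6b* differed by 2.22 ± 0.28 (adjusted p = 8.79e-04). The smallest differences were those of *Fabp7*, 1.69 ± 0.53 (adjusted p = 0.0452), and of *Cdh19*, 1.16 ± 0.45 (adjusted p = 0.0894), and the call of *Fabp7* was kept in 1 of 6 fits that left out a library and neither without the filter on low counts (adjusted p = 0.0599) nor with the reference genes named below (adjusted p = 0.0540). In all, 7 of 8 members were called higher and 0 lower, where 13.4% of 14769 genes were called higher and 12.7% lower, and 8 of 8 had every *RiboTag* library above every *ME* library with both fractions scaled together in the fit, as 23.0% of all genes did. With each fraction scaled on its own, as the levels here are, *Cdh19* overlapped, at 6.82 CPM in the lowest *RiboTag* and 6.88 CPM in the highest *ME* library. By the labels the 2 fractions come from different mouse lines in naïve mice and at IM3h, and their counts stand in separate tables.

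Of 50 other glial genes in 4 lists, for transcription factors, receptors, membrane proteins and binding proteins or enzymes, 48 passed the filter in this comparison, and 33 were called higher in the pulldown and 4 lower. Their median difference was 1.84 on the log2 scale, that of the 8 members 2.90 and that of all genes −0.01. Other cells were also counted in the pulldown: the summed level of 14 enteric neuron markers was 914 to 2066 CPM in naïve *RiboTag* and 983 to 1034 CPM in naïve *ME* libraries, and that of 10 smooth muscle markers 6579 to 9535 CPM and 26002 to 28044 CPM. Of the neuron markers 5 were called higher in the pulldown and 0 lower (median 0.76), against 13.4% and 12.7% of all genes. Of the smooth muscle markers 0 were higher and 7 lower. The part of neurons in the values of *Kcna1* and the other members was not tested.

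At IM3h the glial identity genes of the pulldown went in both directions. *Sox2* and *Cdh19* rose, and *Sox10*, *Fabp7* and *Kcna1* fell, which made 2 of 8 members higher and 3 lower, where 8.86% of 16053 genes were called higher and 4.44% lower. *S100b*, *Foxd3* and *Gpm6b* were not called. The median change of the members was −0.12 (log2) and that of all genes −0.04.

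Among the transcription factors, *Sox2* was counted at 70.1, 81.2, 74.3 and 49.6 CPM at IM3h, each above the highest naïve library of 24.7 CPM. Its rise of 1.64 ± 0.28 (log2 ± SE, 3.12-fold, adjusted p = 0.00249) was called in 7 of 7 fits that left out 1 library. *Sox10* stood at 400, 403, 276 and 282 CPM, each below the lowest naïve library of 483 CPM. Its fall by 0.97 on the log2 scale (SE 0.29, adjusted p = 0.0471) lay close to the threshold and was called in 1 of 7 fits that left out a library. *Foxd3* stood at 15.2 to 40.9 CPM, within reach of the naïve libraries, with a difference of −0.28 ± 0.36 (adjusted p = 0.690). The 3 factors of the neural crest thus did not move as one.

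*Fabp7* was counted at 20.3, 6.74 and 9.91 CPM in naïve *RiboTag* libraries and at 0.92, 0.76, 0 and 0 CPM at IM3h, and fell by 4.74 on the log2 scale (SE 1.11, adjusted p = 0.0150). *S100b* stood at 348, 272, 432 and 1718 CPM, so that 1 library, library 4, was above all naïve libraries and the other 3 overlapped or lay below them. Its difference was 0.38 ± 0.54 (adjusted p = 0.724), and −0.60 without library 4. The sign of the *S100b* difference at IM3h was set by 1 library.

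Among the membrane genes, *Kcna1* stood at 143, 89.4, 99.6 and 53.7 CPM, all below the naïve libraries at 221 to 258 CPM, and fell by 1.28 on the log2 scale (SE 0.29, adjusted p = 0.0136). *Cdh19* stood at 44.6, 25.6, 23.3 and 39.1 CPM against 6.82, 19.4 and 8.37 CPM in naïve mice and rose by 1.57 ± 0.43 (adjusted p = 0.0302). *Gpm6b* was as variable in both groups, 62.6 to 164 CPM and 85.03 to 172 CPM, with a difference of 0.04 ± 0.37 (adjusted p = 0.971). The calls of *Fabp7*, *Cdh19* and *Kcna1* were kept in 6, 4 and 5 of 7 fits without 1 library. That of *Cdh19* was lost with a scaling to the library total (1.34, adjusted p = 0.0843) and to the total without AY036118 (1.33, adjusted p = 0.0741). None of the 5 calls at IM3h was kept with a scaling by the reference genes *Actb*, *Hsp90ab1* and *Rplp1*, where *Sox10*, *Sox2*, *Fabp7*, *Cdh19* and *Kcna1* differed by −1.40, 1.30, −4.79, 1.06 and −1.59 (adjusted p of 0.0569 to 0.354). Of the 3 reference genes 0 were called in this comparison, and their median difference was 0.53. The calls were also lost, with differences of −1.03, 1.58, −4.80, 1.52 and −1.34, when all 4 *RiboTag* groups entered 1 fit, where the spread of the later libraries (median dispersion 1.01 and 1.83 in the IM24h and IM72h fits, 0.271 at IM3h) is shared.

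**Figure D2:**
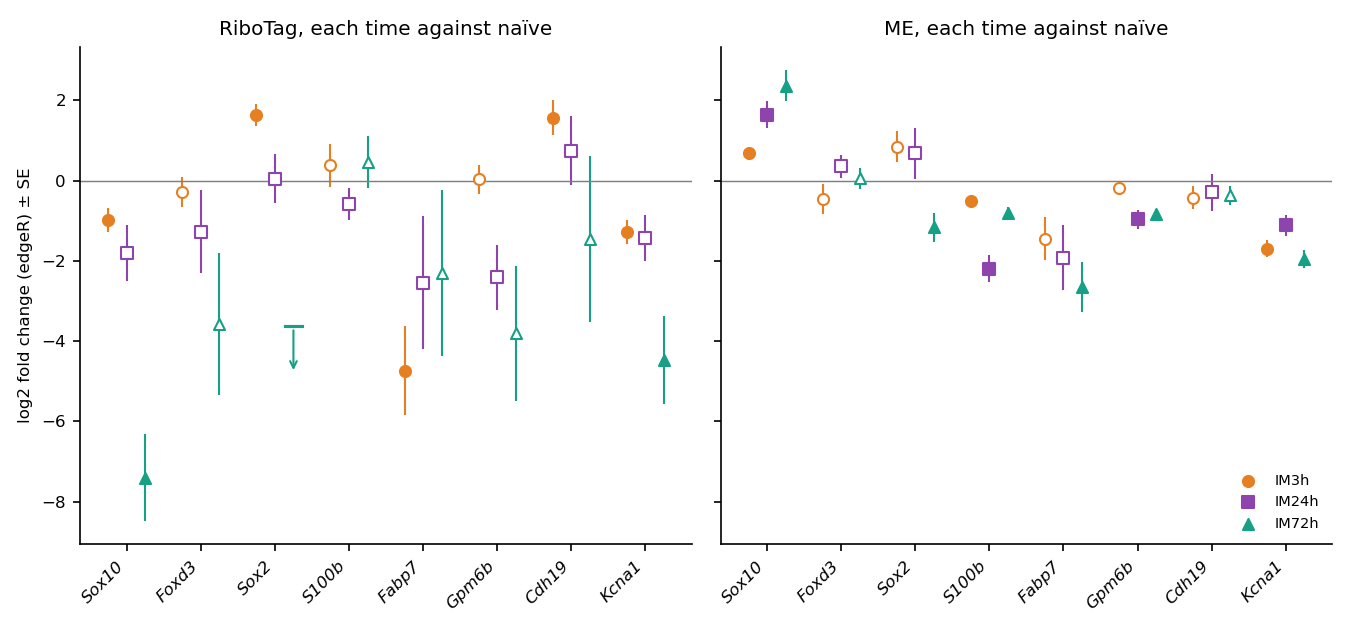
Log2 fold change of each member against naïve mice of the same fraction, with the standard error as a bar, and filled symbols for an adjusted p under 0.05. The downward arrow for *Sox2* in *RiboTag* at IM72h starts at the bound of at least 12.3-fold lower, and *Sox10* lies below 0 in the left panel and above 0 in the right one at all 3 times.

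Other glial genes of the pulldown were also called both ways at IM3h, 9 of 49 higher and 7 lower with a median of −0.33. The largest rises were those of *Ets1* (4.14 ± 0.37), a transcription factor, *Sox9* (3.003 ± 0.84), a SOX factor of glial progenitors, and *Cadm4* (1.73 ± 0.31), an adhesion molecule. The largest falls were those of the channel gene *Kcna2* (−2.75 ± 0.36), of *Gpm6a* (−1.84 ± 0.46), the paralog of *Gpm6b*, and of *Lgi4* (−1.81 ± 0.42), a ligand in peripheral glial development. *Gpm6a* is also expressed by mesothelium and is itself on the list of mesothelial markers, of which 5 of 6 tested fell in the same comparison, with a summed level of 128 to 318 CPM in naïve and 13.2 to 79.5 CPM in IM3h libraries. Of 10 smooth muscle markers 5 fell, with a summed level of 6579 to 9535 CPM in naïve and 2695 to 6194 CPM in IM3h libraries, and of 8 fibroblast markers 4 fell, with 1030 to 1307 CPM and 395 to 583 CPM. The part of RNA of these cells in the values of the glial genes was not tested.

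At IM24h no member of the pulldown passed the adjusted threshold, and the libraries of the group spread widely. By edgeR 0 of 8 members were called in either direction, where 0.366% of 15304 genes were called higher and 0.131% lower, and by DESeq2 0 as well. At an unadjusted p under 0.05, 3 members were lower, *Sox10*, *Gpm6b* and *Kcna1*, and for these every IM24h library lay below every naïve one, as for 14.2% of all genes. These 3 also passed the rule of the study (over 2-fold, with p under 0.05 before adjustment), which 5.85% of all genes passed downwards and 6.62% upwards. The median difference of the members was −1.34, against −0.11 over all genes.

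*Sox10* stood at 418, 37.8, 53.3 and 259 CPM at IM24h, with a difference of −1.80 ± 0.69 (log2 ± SE, adjusted p = 0.256). *Gpm6b* stood at 39.1, 29.7, 0.44 and 14.6 CPM (−2.41 ± 0.80, adjusted p = 0.181) and *Kcna1* at 197, 54.9, 20.7 and 80.9 CPM (−1.42 ± 0.57, adjusted p = 0.285). For *Sox10*, *Foxd3*, *Kcna1* and *Fabp7* the 2 lowest libraries were libraries 2 and 3, the ones with the most AY036118. Without them the difference was −0.9996 for *Sox10* (adjusted p = 0.277), −0.77 for *Kcna1* (adjusted p = 0.368), −0.44 for *Foxd3* and −1.60 for *Fabp7*. *S100b* did not follow this order and stood at 194, 462, 519 and 284 CPM, with the 2 highest values in libraries 2 and 3. *Sox2*, at 32.8, 11.8, 24.7 and 23.6 CPM, was again at the level of naïve mice (0.05 ± 0.62, adjusted p = 0.986), and all 4 libraries lay below all IM3h libraries. *Cdh19* reached 44.5 CPM in library 3 and 9.76 to 12.7 CPM in the other 3. Of 48 other glial genes tested, 1 was higher, *Ets1* (3.29 ± 0.52), and 1 lower, *Dbi* (−1.69 ± 0.32), which encodes an acyl-CoA binding protein.

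At IM72h *Sox10* and *Sox2* were nearly or wholly uncounted in the pulldown, whereas *S100b* was still among its well-counted genes. *Sox10*, *Sox2* and *Kcna1* fell, 3 of 8 members, where 15.1% of 13572 genes were called lower, and 0 were called higher, as were 1.05% of all genes. Without the filter on low counts the call of *Sox10* was kept and those of *Sox2* and *Kcna1* were lost (adjusted p = 0.148 for both). For 5 of 8 members every IM72h library lay below every naïve one, as for 28.1% of all genes. These libraries were the shallowest, with 3.01e+06 to 3.86e+06 counts, of which AY036118 took 58.0% to 80.1%.

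*Sox10* was left with 25, 6, 0 and 2 counts, or 11.8, 2.63, 0 and 1.23 CPM, where naïve libraries held 3826 to 9191 counts. It fell by 7.40 on the log2 scale (SE 1.08, adjusted p = 0.00818), and the call was kept in 7 of 7 fits without 1 library. *Sox2* had 0 counts in all 4 libraries, against 165 to 220 counts in naïve mice, so that it was at least 12.3-fold lower when 3 counts in each library are taken as the limit of detection (adjusted p = 0.0377, called in 4 of 7 fits without 1 library). *Foxd3* had 17 counts at most and 0 in 2 libraries, a difference of −3.57 ± 1.77 (adjusted p = 0.290). With *Sox2* at its bound, the median difference of the 8 members was −3.60 (−3.69 as fitted), and that of all genes was −0.40.

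*S100b* in the same libraries had 2161, 230, 793 and 1750 counts, or 1022, 101, 757 and 1072 CPM. Of the 4 IM72h libraries 3 lay above all naïve libraries at 428 to 700 CPM and 1 below, and the difference was 0.46 ± 0.66 (adjusted p = 0.831). The sign of this difference turned with the scaling, to −1.34 with the library total and −1.20 with the 3 reference genes, neither of which was called. Of the 3 reference genes 2 were themselves higher at IM72h, with a median difference of 1.33 and a summed level of 19361 to 30063 CPM after 7916 to 15423 CPM in naïve mice. Its counts exceeded those of *Sox10* in each of these libraries. *S100b* was lowest in library 2, which had the most detected genes of the group (11416).

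*Kcna1* stood at 27.4, 11.8, 0 and 4.29 CPM at IM72h and fell by 4.47 on the log2 scale (SE 1.09, adjusted p = 0.0228), a call kept in 5 of 7 fits without 1 library. *Gpm6b* had 68 counts in library 1, all of Gpm6b-211, a transcript annotated as a retained intron, and at most 1 in the other 3 (−3.80 ± 1.68, adjusted p = 0.211), *Cdh19* had 40 counts in library 2 and 0 elsewhere (−1.45 ± 2.07, adjusted p = 0.833), and *Fabp7* had 10 counts in library 3 and 0 elsewhere (−2.30 ± 2.07, adjusted p = 0.678). Each of these 3 genes was therefore carried by 1 library, and not the same one. Such bulk libraries cannot tell the number of tagged glia from the mRNA per glial cell, here or in the comparisons that follow. The part of library depth and AY036118 content in these values was not tested either.

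Among other glial genes at IM72h, 16 of 48 tested were lower and 1 was higher, the transcription factor gene *Zeb2* (1.52 ± 0.42). *Aldoc*, *Gpm6a* and *Hey2*, an enzyme, a membrane protein and a Notch target, had 0 counts in all 4 libraries after 22.5, 22.2 and 12.5 CPM in naïve mice, and were at least 12.1-fold, 11.9-fold and 6.75-fold lower. *Gpm6a* is also on the list of mesothelial markers, of which 3 of 6 tested were lower and 0 higher. *Upk3b* and *Upk1b* of that list were at 0 in every IM72h library too. The neuron markers, of which 1 of 14 was lower, summed to 513 to 957 CPM. In the same libraries 9 macrophage markers, of which 1 of 8 tested was higher and 1 lower, summed to 218 to 474 CPM after 98.9 to 204 CPM in naïve mice, and 8 proliferation genes, of which 2 of 6 tested were higher, to 249.3 to 569 CPM after 29.6 to 45.1 CPM. *Cd68* and *Cd163* of the former and *Cdk1* of the latter were at 0 in every IM72h library. The part of these lists in the values of the glial genes was not tested.

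In whole *ME* RNA *Sox10* was called higher and *S100b* and *Kcna1* lower at all 3 times, though some of these calls were lost under other settings, as given with each time. At IM3h, where naïve and operated mice are of 1 line, 1 of 8 members was higher and 2 were lower, against 19.3% and 13.4% of 15333 genes. *Sox10* stood at 24.2, 28.3 and 23.9 CPM after 18.7, 15.9 and 14.7 CPM in naïve mice and rose by 0.68 ± 0.16 (log2 ± SE, 1.60-fold, adjusted p = 0.00928). *S100b* stood at 26.6, 22.8 and 28.2 CPM after 34.8 to 41.0 CPM (−0.50 ± 0.14, adjusted p = 0.0215). *Kcna1* stood at 9.14, 7.22 and 6.97 CPM after 22.2 to 32.4 CPM (−1.70 ± 0.22, 3.25-fold lower, adjusted p = 2.41e-04). In all 3 genes the libraries of the groups did not overlap. On the scaling of the fit this was so for 5 of 8 members (2 above and 3 below, against 25.3% and 22.7% of all genes). On the scaling of the levels *Gpm6b* lay below as well, at 22.1 to 30.0 CPM after 31.8 to 32.0 CPM. With 3 against 3 libraries the exact permutation test cannot go below the p of 0.1 that it gave for *Sox10*, *S100b* and *Kcna1*. The calls of *Sox10* and *S100b* were kept in 5 of 6 fits without 1 library, and that of *Kcna1* in 6 of 6. With all *ME* groups in 1 fit the calls of *Sox10* (0.63, adjusted p = 0.334) and *S100b* (−0.55, adjusted p = 0.201) were lost and that of *Kcna1* was kept. The call of *Sox10* was lost too with the library total (0.42, adjusted p = 0.128), the total without AY036118 (0.46, adjusted p = 0.0509) and the reference genes (0.27, adjusted p = 0.232), of which 2 of 3 were higher at IM3h.

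*Sox2* stood at 4.32 to 5.30 CPM in the *ME* at IM3h, above all naïve libraries at 1.72 to 3.98 CPM, but its difference of 0.84 ± 0.38 was not called (adjusted p = 0.116). *Fabp7* differed by −1.44 ± 0.54 (adjusted p = 0.0662), and *Foxd3*, *Gpm6b* and *Cdh19* by −0.46, −0.18 and −0.42 with adjusted p-values of 0.276 to 0.399. Of 45 other glial genes tested, 7 rose and 16 fell. *Sox9* (1.60 ± 0.23), *Ets1* (1.48 ± 0.16) and *Glul* (1.27 ± 0.12), which encodes glutamine synthetase, rose most, and *Gpm6a* (−4.22 ± 0.45), the potassium channel gene *Kcnj10* (−2.47 ± 0.50) and the connexin gene *Gjc3* (−1.46 ± 0.38) fell most. Mesothelial markers fell as well, 6 of 7, from a summed level of 164 to 209 CPM to 17.1 to 67.0 CPM, and *Gpm6a* is among them. Markers of fibroblasts (5 of 7 tested), interstitial cells of Cajal (3 of 4) and smooth muscle (3 of 10) fell too, with 0 higher in each. Of the neutrophil markers 3 of 3 tested rose. The part of these cells in the values of the glial genes was not tested.

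At IM24h 1 member was higher in the *ME* and 3 were lower, where 15.6% and 13.4% of 16328 genes were. *Sox10* stood at 38.0, 27.2, 70.2 and 70.2 CPM, above all naïve libraries (1.64 ± 0.34, 3.11-fold, adjusted p = 0.00515). *S100b* stood at 6.68, 10.6, 3.82 and 12.3 CPM, its lowest level in the *ME* at any time, and fell by 2.19 on the log2 scale (SE 0.34, 4.57-fold lower, adjusted p = 0.00125). *Gpm6b*, at 10.3 to 19.9 CPM after 31.8 to 32.0 CPM, fell by 0.97 (SE 0.23, adjusted p = 0.0114), and *Kcna1*, at 7.89 to 15.0 CPM, by 1.11 (SE 0.26, adjusted p = 0.00984). The call of *S100b* was kept under every scaling tried, whereas that of *Sox10* was lost with the reference genes (1.38, adjusted p = 0.0955), that of *Kcna1* with the library total (−0.45, adjusted p = 0.193) and that of *Gpm6b* with the library total, the total without AY036118 and the reference genes (−0.33, −0.65 and −1.28, adjusted p of 0.319, 0.0526 and 0.0521). The summed level of smooth muscle markers was at its lowest at the same time, 3938 to 12301 CPM after 26002 to 28044 CPM, so that the makeup of the tissue RNA changed along with the glial genes, and its part in their values was not tested. Of 46 other glial genes, 5 rose and 14 fell, with *Adora2b*, an adenosine receptor gene (2.19 ± 0.49), *S100a4* (1.95 ± 0.25) and *S100a6* (1.62 ± 0.18) among those that rose and *Kcna2* (−2.10 ± 0.23) and *S100a1* (−1.63 ± 0.29) among those that fell. Of 9 macrophage markers 5 rose in the same comparison, with a summed level of 457 to 1052 CPM after 229 to 265 CPM, and so did 5 of 5 tested neutrophil markers, with 46.2 to 215 CPM after 0.846 to 1.07 CPM. Their part in the rises was not tested.

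At IM72h *Sox10* in the *ME* reached 74.8, 102, 139 and 33.2 CPM, 5.17-fold above naïve mice (2.37 ± 0.40, adjusted p = 4.41e-04), while 5 of 8 members were lower. In this comparison 29.3% of 16592 genes were higher and 28.3% lower, so that calls were common. Of 7 tested genes within 100 kb of *Sox10*, 5 were higher and 0 lower. By the labels, *ME* mice of IM24h and IM72h carry a *Sox10* transgene that naïve *ME* mice do not. Line and time cannot be told apart in these values. *Kcna1* stood at 6.04, 4.43, 8.29 and 8.76 CPM (−1.95 ± 0.23, adjusted p = 4.57e-05) and *Fabp7* at 0, 0.68, 1.05 and 1.36 CPM (−2.65 ± 0.62, adjusted p = 0.00362). *Gpm6b* (−0.82 ± 0.12, adjusted p = 1.51e-04), *S100b* (−0.80 ± 0.15, adjusted p = 7.59e-04) and *Sox2* (−1.16 ± 0.36, adjusted p = 0.0164) were lower too. *Foxd3* (0.05 ± 0.26) and *Cdh19* (−0.37 ± 0.24) were not called. With a scaling to the library total the calls of *S100b* (−0.21), *Sox2* (−0.58) and *Gpm6b* (−0.22) were lost (adjusted p of 0.203 to 0.330) and 3 of the 6 were kept. That of *Sox2* was lost as well with the total without AY036118 (adjusted p = 0.0505) and with all *ME* groups in 1 fit (adjusted p = 0.0868). Of the 3 reference genes 2 were higher. Markers of other cells moved in the same comparison, with 7 of 14 neuron markers lower and 2 higher (summed level 663 to 778 CPM after 983 to 1034 CPM), 6 of 10 smooth muscle markers lower (14528 to 22897 CPM after 26002 to 28044 CPM), 4 of 5 markers of interstitial cells of Cajal lower (159 to 183 CPM after 367 to 372 CPM) and 5 of 7 mesothelial markers lower (50.8 to 128 CPM after 164 to 209 CPM). All 8 proliferation genes were higher, with 387 to 483 CPM after 28.8 to 46.0 CPM. The part of these cells in the values of the members was not tested.

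Other glial genes of the *ME* at IM72h were called higher in 10 and lower in 20 of 49 cases. *Apoe* (2.52 ± 0.12), a lipid carrier, and the calcium-binding genes *S100a4* (2.11 ± 0.21) and *S100a6* (2.02 ± 0.14) rose most, and *Chl1* (−1.88 ± 0.12), an adhesion molecule, and *Sox5* (−1.80 ± 0.29) were among those that fell. *Apoe*, *S100a4* and *S100a6* are also made by macrophages and other cells, and the summed level of 9 macrophage markers was 1342 to 1585 CPM at IM72h after 229 to 265 CPM in naïve mice. The median difference of the members was −0.44, −0.63 and −0.81 at the 3 times and that of all genes 0.00, 0.02 and 0.02.

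From IM24h to IM72h, a comparison within 1 mouse line, *S100b* in the *ME* rose again by 1.39 ± 0.32 (adjusted p = 0.00557), from 3.82 to 12.3 CPM to 18.8, 25.5, 25.2 and 19.5 CPM. *Sox2* fell by 1.84 on the log2 scale (SE 0.53, adjusted p = 0.0179), from 1.80 to 7.18 CPM to 1.13 to 1.36 CPM. *Kcna1* fell by 0.85 (SE 0.29, adjusted p = 0.0389), a call kept in 2 of 8 fits without 1 library, and its libraries overlapped. With the reference genes the calls of *S100b* (1.11, adjusted p = 0.0868) and *Kcna1* (−1.10, adjusted p = 0.0824) were lost, and without the filter on low counts that of *Kcna1* (adjusted p = 0.0633). These were 1 member higher and 2 lower, against 18.6% and 19.9% of 16281 genes. *Sox10* did not differ beyond its spread between these times (0.73 ± 0.41, adjusted p = 0.181). Of 48 other glial genes 10 rose and 8 fell, among them *Apoe* (2.87 ± 0.26) and *S100a1* (1.78 ± 0.27) upwards and the transcription factor gene *Hey2* (−2.28 ± 0.43), *Fabp5* (−1.51 ± 0.22), a fatty acid binding protein, and *Cryab* (−1.28 ± 0.29), a small heat shock protein, downwards. Higher as well were 6 of 10 smooth muscle, 5 of 9 macrophage, 4 of 8 fibroblast and 4 of 7 epithelial markers and 6 of 8 proliferation genes, with 0 lower in each. Of 14 neuron markers 6 were lower and 1 higher, and 3 of 5 markers of interstitial cells of Cajal and 3 of 6 neutrophil markers were lower. The part of these cells in the values was not tested.

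In the order of the mean levels, *Sox10* in *RiboTag* ran naïve, IM3h, IM24h, IM72h from high to low, with no overlap of libraries between naïve and IM3h or between IM24h and IM72h, and in the *ME* it ran the opposite way, with no overlap between naïve and IM3h only. *S100b* in *RiboTag* ran IM72h, IM3h, naïve, IM24h, and every neighbouring pair overlapped. In the *ME* it ran naïve, IM3h, IM72h, IM24h, with an overlap between IM3h and IM72h only. *Sox2* was highest at IM3h in both fractions and lowest at IM72h in both, and in *RiboTag* only naïve and IM24h overlapped. *Kcna1* was highest in naïve mice and lowest at IM72h in both fractions, and naïve libraries overlapped with no neighbour. *Gpm6b* was highest in naïve mice in both fractions. *Fabp7* was highest in naïve mice in both fractions too, and all its neighbouring groups overlapped, as did those of *Foxd3* and *Cdh19*.

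The pulldown was next compared with the tissue at each later time, which shows how far a gene of the glial libraries stood above the lysate. At IM3h 7 of 8 members were higher in *RiboTag*, where 11.8% of 15829 genes were higher and 12.2% lower. The differences ran from 2.45 ± 0.35 (log2 ± SE) for *Gpm6b* to 5.14 ± 0.73 for *S100b*, with *Sox2* at 4.22 ± 0.26, *Sox10* at 4.12 ± 0.24, *Kcna1* at 4.01 ± 0.36, *Cdh19* at 3.17 ± 0.34 and *Foxd3* at 2.59 ± 0.45. That of *S100b* ranged from 4.135 to 5.42 without 1 library and was called in 7 of 7 such fits. The member without a call was *Fabp7* (−1.61 ± 1.34, adjusted p = 0.425), which 2 of the 4 *RiboTag* libraries did not hold at all. Of 14 enteric neuron markers 8 were higher in the pulldown and 0 lower at this time, with a median difference of 1.47.

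At IM24h, where both fractions are of the same line, 7 members passed the filter and 3 were higher in *RiboTag*, where 6.06% of 14642 genes were higher and 6.06% lower. *S100b* differed by 5.81 ± 0.51 (adjusted p = 5.80e-04), *Kcna1* by 3.24 ± 0.62 (adjusted p = 0.00730) and *Sox2* by 2.77 ± 0.75 (adjusted p = 0.0334, called in 2 of 8 fits without 1 library). With the library total and with the reference genes the calls of *Kcna1* (adjusted p of 0.0749 and 0.1301) and *Sox2* (0.176 and 0.243) were lost. *Sox10* differed by 2.28 ± 0.69, just short of a call (adjusted p = 0.0508). At the study's threshold 5 members were higher, where 11.5% of all genes were higher and 13.5% lower. Without libraries 2 and 3, those with the most AY036118, *Sox10* (3.03, adjusted p = 0.00248) and *Foxd3* (1.49, adjusted p = 0.0232) were called too. The share of all genes called in that fit is not given here.

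At IM72h 6 members passed the filter, and *S100b* and *Sox10* parted. *S100b* was still higher in the pulldown by 5.62 ± 0.76 (adjusted p = 0.00200), whereas *Sox10* was lower there than in the tissue (−3.92 ± 1.18, adjusted p = 0.0351, called in 4 of 8 fits without 1 library). These were 1 member higher and 1 lower, against 4.18% and 25.4% of 14307 genes. *Sox10* had 0 to 25 counts in *RiboTag* libraries and 512 to 1846 counts in *ME* libraries of this time.

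**Figure D3:**
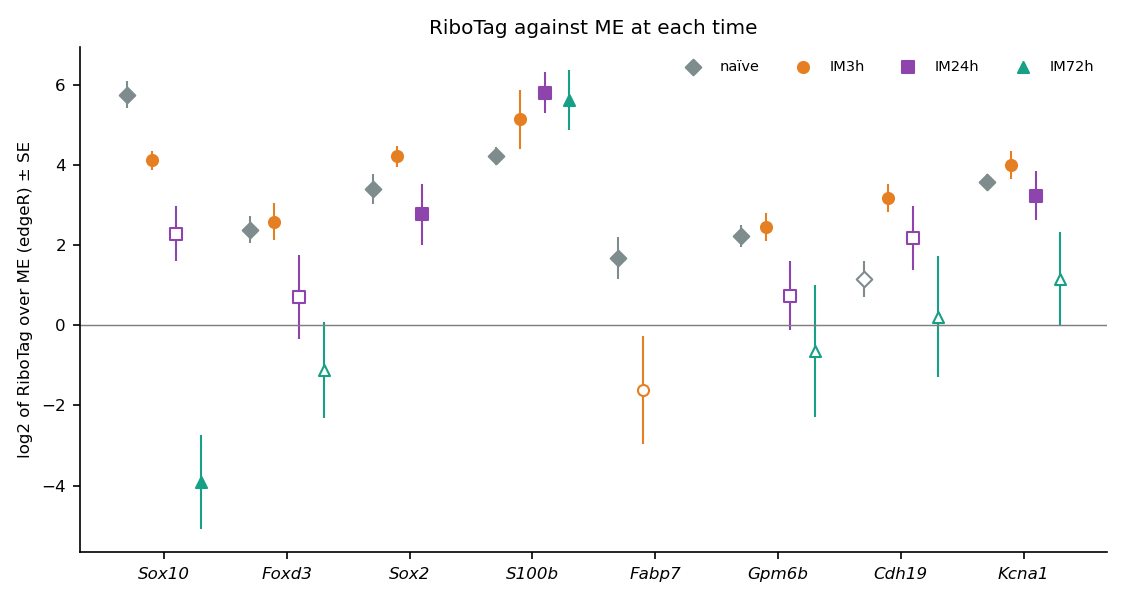
Log2 difference of *RiboTag* over *ME* for each member at each time, with the standard error as a bar and filled symbols for an adjusted p under 0.05, members without a test left out. *S100b* lies between 4.23 and 5.81 at all 4 times, while *Sox10* goes from 5.76 in naïve mice to −3.92 at IM72h.

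Whether a change after IM differed between the fractions was tested as an interaction. At IM3h this was called for *Sox10* alone, −1.56 ± 0.36 (log2, *RiboTag* minus *ME*, adjusted p = 0.0390), with 1 of 8 members lower where 0.698% of 17617 genes were lower and 0.959% higher, and the call was kept in 5 of 13 fits without 1 library and neither with the library total nor with the 3 reference genes. *Cdh19* came next with 2.09 ± 0.55 (adjusted p = 0.0713). At IM24h 0 of 8 members were called by edgeR, against 0.274% of 17508 genes higher and 0.263% lower, while 2 had an unadjusted p under 0.05, *Sox10* (−3.42 ± 0.90, adjusted p = 0.0968) and *S100b* (1.62 ± 0.54, adjusted p = 0.188), and DESeq2 called 1. Without libraries 2 and 3 the *Sox10* interaction was −2.59 (adjusted p = 0.0205).

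At IM72h the interaction of *Sox10* was −10.0 ± 1.30 (adjusted p = 4.72e-04), and *Sox2* was called as well (adjusted p = 6.55e-04), though its size cannot be given because *Sox2* had 0 counts in all *RiboTag* libraries of that time. Both calls were kept in 14 of 14 fits without 1 library. They were 2 of 8 members, where 21.1% of 16527 genes were called lower and 2.15% higher. *S100b* was not called (0.90 ± 0.75, adjusted p = 0.466). At the study's threshold the interaction calls were 1 member higher and 2 lower at IM3h (5.99% and 5.18% of all genes), 1 and 1 at IM24h (5.85% and 7.22%) and 0 and 4 at IM72h (4.65% and 28.5%). By the labels the interactions at IM24h and IM72h hold the difference between mouse lines of the *ME*.

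Ratios of 2 genes within a library do not depend on how libraries are scaled. In *ME* libraries, *S100b* had 2.03 to 2.78 counts for each *Sox10* count in naïve mice, 0.807 to 1.18 at IM3h, 0.0544 to 0.390 at IM24h and 0.181 to 0.586 at IM72h. No library at a later time overlapped with naïve mice. By the labels, IM24h and IM72h *ME* mice carry a *Sox10* transgene that naïve *ME* mice do not. Line and time cannot be told apart in this ratio or those that follow. The exact two-sided permutation test of the log ratio gave its smallest possible p each time, 0.1 at IM3h and 0.0286 at IM24h and IM72h (0.164, 0.0735 and 0.0735 after adjustment over 18 tests). In *RiboTag* the same ratio was 0.414 to 1.45 in naïve mice, 0.677 to 6.09 at IM3h and 0.465 to 12.2 at IM24h, with overlap at both times.

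*Kcna1* counts per *Sox10* count went the same way in the *ME*, from 1.31 to 2.04 in naïve mice to 0.255 to 0.378, 0.159 to 0.396 and 0.0436 to 0.264, again with no overlap. In *RiboTag* they were 0.246 to 0.457 in naïve mice, 0.191 to 0.361 at IM3h and 0.312 to 1.45 at IM24h. *Sox2* per *Sox10* was 0.0239 to 0.0510 in naïve *RiboTag* libraries and 0.175 to 0.269 at IM3h, with no overlap (exact permutation p = 0.0286, adjusted 0.0735), and at IM24h it was 0.0785 to 0.463, still above all naïve libraries. In the *ME*, *Sox2* per *Sox10* was 0.108 to 0.213 in naïve mice, 0.181 to 0.198 at IM3h, 0.0278 to 0.176 at IM24h and 0.00975 to 0.0410 at IM72h, with no overlap with naïve mice at IM72h only. At IM3h the *Sox2* ratios of the fractions overlapped, after naïve values that did not. Ratios are not given for *RiboTag* at IM72h, where *Sox10* had 0 to 25 counts.

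**Figure D4:**
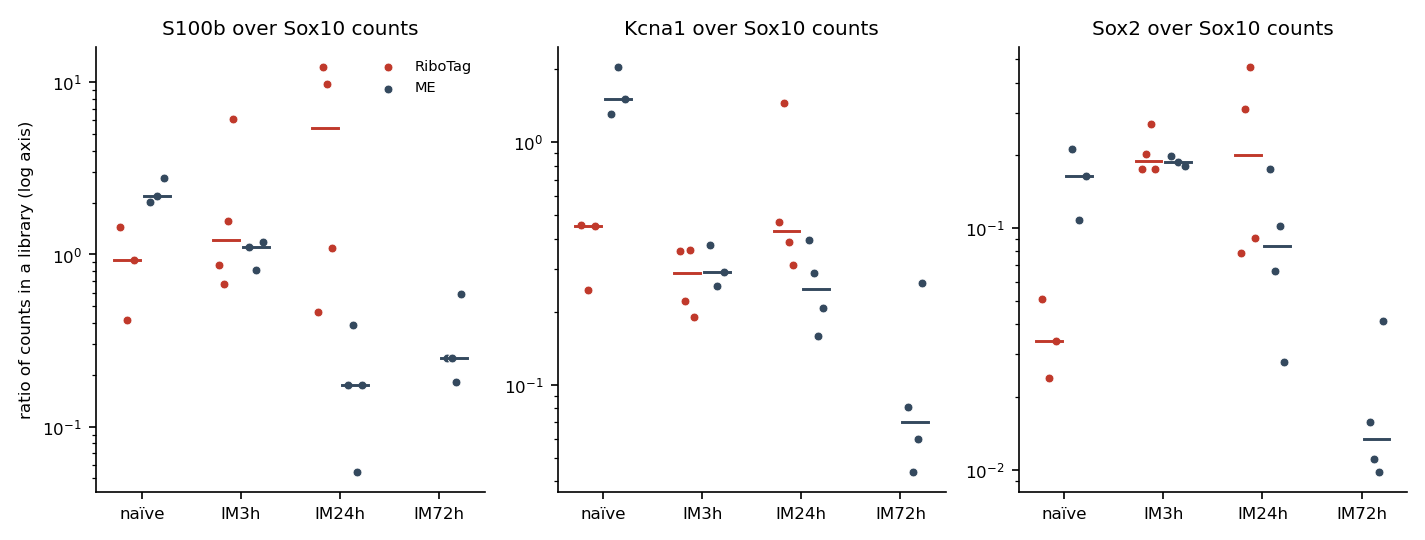
Ratio of the counts of *S100b*, *Kcna1* or *Sox2* to those of *Sox10* in each library on a log axis, red for *RiboTag* and dark blue for *ME*, with bars for medians and *RiboTag* IM72h left out. In the *ME* panels for *S100b* and *Kcna1* every later library lies below the naïve ones at 2.03 to 2.78 and 1.31 to 2.04.

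Counts per transcript were deposited too, and for *Kcna1* they assign counts to 2 ends of the mRNA. Kcna1-202 ends at position 126641664 of chromosome 6, 1267 bases short of the end of Kcna1-201 at 126640397. Kcna1-202 held 79.9%, 83.1% and 83.3% of *Kcna1* counts in naïve *RiboTag* libraries and 12.8%, 33.4% and 43.7% in naïve *ME* libraries. The groups did not overlap, and the exact permutation p of 0.1 is the smallest that 3 against 3 libraries allow (0.2 after adjustment over 16 tests of transcript shares). In the *ME* the share of the shorter end was 36.7% to 89.1% at IM3h, 25.1% to 96.3% at IM24h and 62.6% to 100% at IM72h, the last with no overlap with naïve mice (exact permutation p = 0.0571, adjusted 0.2). In *RiboTag* libraries it was 84.9% to 100% at IM3h and 77.7% to 100% at IM24h. Of the counts given to the longer end in the *ME* at IM72h, 41.2 of 50.3 came from library 3. In every library at 100% the other transcript had the same share of 0.000565%, among them *RiboTag* IM3h library 4 with 578 *Kcna1* counts and the 3 *RiboTag* IM72h libraries that held 7 to 58, so that the upper ends of these ranges are a fixed value of the estimate. Below 100% values repeated as well: in the *ME* the longer end was given 4.58 counts in IM3h library 3, IM24h library 3 and IM72h libraries 1 and 2, and 41.2 counts in IM24h library 4 and IM72h library 3. The shares after IM in the *ME* thus rest on an assignment that gave the same value in several libraries, and are estimates rather than counted shares.

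**Figure D5:**
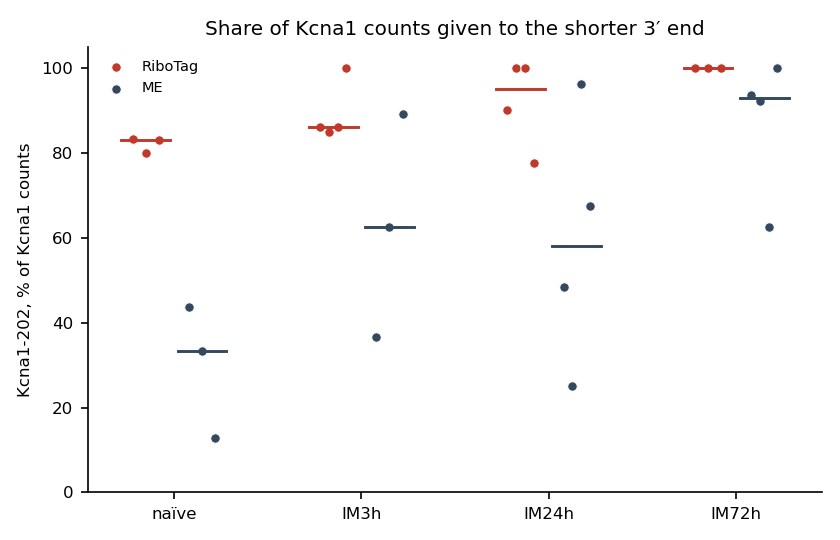
Percentage of *Kcna1* counts assigned to Kcna1-202, the transcript with the shorter 3′ end, in each library, red for *RiboTag* and dark blue for *ME*, with bars for medians. Naïve *RiboTag* libraries lie at 79.9% to 83.3% and naïve *ME* libraries at 12.8% to 43.7%.

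*Gpm6b* transcripts differ mainly at their start. Gpm6b-209 begins at position 166238911 of chromosome X, next to the promoter shown above, while Gpm6b-202 and Gpm6b-203 begin at 166344692. All 3 share a last exon of 3598 bases, so that 3′ reads bear little on which of them was made. With that limit, Gpm6b-209 was given 16.4% to 40.4% of *Gpm6b* counts in naïve *RiboTag* and 53.9% to 73.5% in naïve *ME* libraries, and 0.0122% to 5.94% in *RiboTag* at IM3h (exact permutation p = 0.0286 against naïve mice, adjusted 0.152). Gpm6b-211, the retained intron form, took 34.4% of *Gpm6b* counts in *RiboTag* IM3h library 4 and 0.79% at most in the other 3 libraries of that group. *Cdh19* counts belonged to Cdh19-201 in all libraries that held any but *RiboTag* IM24h library 3, where 98.8% went to Cdh19-202, a processed transcript without a coding sequence, and this library gave the highest *Cdh19* level of its group. The 2 *Sox10* transcripts end 5 bases apart and were not separated.

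Over the 15 *RiboTag* libraries the members did not all vary together. Each member's log2 CPM was set against the mean of the other 7 after standardization: *Sox10* followed it most closely (Pearson r = 0.96), then *Gpm6b* (0.88), *Kcna1* (0.86), *Sox2* (0.83) and *Foxd3* (0.82), while *Cdh19* (0.52), *Fabp7* (0.19) and *S100b* (−0.20) followed it less. Among 8146 other genes with a mean of at least 10 CPM, those most like the mean of the 8 members were *Aldh2* (0.98), *Lama5* (0.98), *Tppp3* (0.96), *Gpr37l1* (0.96), *Kif1a* (0.96), *Extl3* (0.96), *1110008P14Rik* (0.95) and *Axl* (0.95). Their levels were highest in naïve mice and at most 2.35 CPM at IM72h, as for *Gpr37l1*, a receptor gene of glia, with 183, 109, 28.3 and 0.11 CPM on average in naïve mice and at the 3 times. The libraries share their pulldown and their AY036118 content, which is highest where these genes are lowest, and the part of that content in the likeness was not tested.

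Over the 14 *ME* libraries the members had less in common. *Fabp7* followed the other 7 with r = 0.77 and *Gpm6b* with 0.58, and *Sox10* went against them with −0.54. The genes most like the mean of the members among 9171 were *Hsdl1* (0.85), *Rtl8b* (0.85), *Col13a1* (0.83), *Pln* (0.83), *Ccdc71* (0.82), *Tspan12* (0.82), *Zfp580* (0.82) and *Zer1* (0.82), each highest in naïve mice. *Pln*, which encodes the calcium pump regulator phospholamban of muscle, went from 171 CPM in naïve mice to 62.1, 59.3 and 59.0 CPM.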

How the data were processed

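Per the labels and the methods, the authors aligned QuantSeq 3′ end reads with STAR after trimming with cutadapt, on mm10 with Ensembl annotation, and quantified them in Partek Flow. They deposited expected counts (estimated counts per transcript, and per gene for *ME*), unnormalized, in tables that list features with a total of at least 10. Here transcripts were summed to genes and rounded. Genes passing filterByExpr were tested per comparison with edgeR 4.0.16 (limma 3.58.1, R 4.3.3), using TMM factors, quasi-likelihood F-tests and Benjamini-Hochberg adjustment. DESeq2 1.42.0, other scalings, no filter and leaving out libraries were alternatives. The code was tested on simulated data. Log2 CPM for likeness used a prior count of 2 and genes with a mean of at least 10 CPM. Within each comparison the text names up to 3 called glial genes per direction, by size of change. Values of some of these genes are not reported here. The 8 genes and the lists of other glial genes and of other cell types were chosen with earlier results of these data known. Promoters are RefSeq sequences and gene positions GENCODE.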

Additional observations from a re-analysis of the deposited data

Results flagged for a closer look

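In 6 of 39 groups of 4 libraries tested, 1 library of a member stood apart by Dixon's ratio of gap to range above its critical value, where chance gives about 1 in 20 groups of normally spread values. That rate says nothing of 4 of the 6, *Fabp7* at both times and *Gpm6b* and *Cdh19* at IM72h, where the other 3 libraries held at most 1 count each, so that any higher count in the remaining library brings the ratio near 1. All 6 are *RiboTag* groups and the highest library in each. *S100b* at IM3h reached 1718 CPM in 1 library after 432 CPM in the next (ratio 0.89). *Fabp7* had a ratio of 0.975 at IM24h, with 7.51 CPM in 1 library, and of 1 at IM72h, with 9.55 CPM in 1 library and 0 in the others. *Gpm6b* at IM72h had a ratio of 0.981, with 32.2 CPM in 1 library. *Cdh19* had a ratio of 0.915 at IM24h, with 44.5 CPM in 1 library, and of 1 at IM72h, with 17.5 CPM in 1 library and 0 in the others.

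The change after IM differed between *RiboTag* and *ME*, by the interaction test, for *Sox10* at IM3h (log2 −1.56, kept in 5 of 13 fits without 1 library and lost with the library total and the reference genes) and IM72h (−10.0) and for *Sox2* at IM72h (−9.60 as fitted, a value that depends on the prior count because *Sox2* had 0 counts in that *RiboTag* group). By the labels, at IM72h the *ME* mice are of another line than the naïve *ME* mice, and line and time cannot be told apart.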

How the results depend on the processing

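Of the values of single members that passed the test, none turned its direction under any alternative. Leaving out 1 library at a time kept 288 such values past the threshold and lost 52, and the other alternatives kept 293 and lost 48. The median change of all genes in *RiboTag* at IM3h, IM24h and IM72h, −0.04, −0.11 and −0.40 with TMM, was −0.24, −0.96 and −2.13 with the library total and −0.45, −1.51 and −2.07 with the 3 reference genes, and in *ME* −0.26, 0.66 and 0.62, and −0.41, −0.35 and −0.58. The cause of the changes below was not tested. No paired analysis was possible because the libraries carry no replicate number in the tables. By the methods, input RNA is taken from the same lysate as the pulldown. Libraries of the 2 fractions may therefore share mice, and the fits treated them as independent. The total without AY036118 and the fits without the 2 libraries richest in it were chosen after seeing the data. The share of all genes called in the fits without these 2 libraries is not given here.

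The number of members called changed from 5 to 0 in *RiboTag* at IM3h with the reference genes and with all groups in 1 fit. In *RiboTag* it went from 0 to 3 at IM24h with the study's threshold, and from 3 to 1 without a filter and to 5 with the reference genes at IM72h. In *ME* it went at IM3h from 3 to 5 with the reference genes and to 1 with all groups in 1 fit, at IM24h from 4 to 2 with the reference genes, at IM72h from 6 to 3 with the library total, and for IM72h against IM24h from 3 to 1 with the reference genes. For *RiboTag* against *ME* at IM24h it went from 3 to 5 with the study's threshold, DESeq2 and without the 2 libraries, and to 1 with the library total and the reference genes. For the interactions it went at IM3h from 1 to 3 with the study's threshold, 2 with DESeq2 and 0 with the library total and the reference genes, at IM24h from 0 to 2 with the study's threshold and 1 with DESeq2, the library total and without the 2 libraries, and at IM72h from 2 to 4 with the study's threshold, DESeq2 and the reference genes and 5 with the library total. Without 1 library it ranged in *RiboTag* from 2 to 4 at IM3h, 0 to 1 at IM24h and 1 to 4 at IM72h, in *ME* from 1 to 4, 3 to 5 and 5 to 6 and for IM72h against IM24h from 1 to 4, for *RiboTag* against *ME* from 6 to 7 in naïve mice, 7 to 7 at IM3h, 2 to 4 at IM24h and 1 to 4 at IM72h, and for the interactions from 0 to 1, 0 to 1 and 2 to 5.

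Log2 differences that had not passed the test turned sign as follows. With the library total, *RiboTag* gave *Gpm6b* −0.14 at IM3h, *Sox2* −0.72 and *Cdh19* −0.43 at IM24h and *S100b* −1.34 at IM72h, *ME* gave *Cdh19* 0.33 at IM24h and 0.22 at IM72h, *RiboTag* against *ME* at IM72h gave *Cdh19* −1.26 and *Kcna1* −0.35, and the interactions gave *S100b* −0.13 and *Cdh19* −0.77 at IM24h and *S100b* −1.12 at IM72h. With the reference genes, *RiboTag* gave *S100b* −0.36 and *Gpm6b* −0.31 at IM3h, *Sox2* −1.21 and *Cdh19* −1.14 at IM24h and *S100b* −1.20 at IM72h, *ME* gave *Foxd3* −0.056 at IM24h and −0.56 at IM72h and *Gpm6b* −0.14 for IM72h against IM24h, *RiboTag* against *ME* at IM72h gave *Cdh19* −0.83 and *Kcna1* −0.077, and the IM24h interaction *Cdh19* −0.62. With the total without AY036118, *Gpm6b* was −0.18 in *RiboTag* at IM3h, *Sox2* −0.16 in *RiboTag* at IM24h and *Cdh19* 0.019 in *ME* at IM24h. All groups in 1 fit gave *Gpm6b* −0.021 in *RiboTag* at IM3h. DESeq2 gave *Sox2* −0.028 in *RiboTag* at IM24h, *Cdh19* −0.00038 for *RiboTag* against *ME* at IM72h, which was −0.061 without a filter, and *Fabp7* 0.67 for the IM72h interaction. Without the 2 libraries the IM24h interaction was 0.36 for *Fabp7* and 0.38 for *Kcna1*. Without 1 library, *RiboTag* at IM3h ranged from −0.51 to 0.023 for *Foxd3*, −0.17 to 0.46 for *Gpm6b* and −0.60 to 0.65 for *S100b*, and at IM24h from −0.16 to 0.28 for *Sox2* and −0.012 to 1.35 for *Cdh19*. *ME* ranged at IM72h from −0.087 to 0.24 for *Foxd3* and for IM72h against IM24h from −0.042 to 0.25 for *Gpm6b* and −0.30 to 0.36 for *Cdh19*. *RiboTag* against *ME* ranged from −0.13 to 1.09 for *Foxd3* at IM24h and from −0.065 to 1.34 for *Kcna1* and −8.45 to 0.50 for *Cdh19* at IM72h, and the interactions from −1.26 to 0.045 for *Kcna1* and −5.09 to 0.15 for *Fabp7* at IM24h and −7.28 to 0.25 for *Fabp7* at IM72h.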

Other observations

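Genes within 100 kb of *Sox10* were looked at in the *ME* after its rise had been seen. At IM24h 2 of 8 tested neighbours were higher and 0 lower, *Polr2f* by 1.98 on the log2 scale and *Micall1* by 1.11, where 15.6% of all genes were higher. At IM72h 5 of 7 were higher and 0 lower, *Baiap2l2* by 2.05, *1700088E04Rik* by 1.44, *Polr2f* by 1.13, *Ankrd54* by 1.12 and *Micall1* by 0.89, where 29.3% of all genes were higher. By the labels, these *ME* libraries carry a *Sox10* transgene that the naïve *ME* libraries do not, and line and time cannot be told apart.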
